A study of Homo sapiens with 4 samples.

Results

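Chromatin immunoprecipitation sequencing (ChIP-seq) peaks of Fra-1 and DDX5 were examined on the sequences of hg19 that lie outside the assembled chromosomes: unplaced scaffolds (names starting chrUn), scaffolds assigned to a chromosome without a position (random), alternate haplotype contigs (hap), and the mitochondrial genome, chrM. The members were all peaks on such sequences in the deposited lists, chosen by sequence name alone. They numbered 250 of 57601 listed peaks, on 36 contigs. They comprised 70 peaks on the ribosomal repeat scaffold chrUn_gl000220, 50 on 17 other unplaced scaffolds, 49 on 10 random scaffolds and 81 on 8 haplotype contigs. No list held a peak on chrM.

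All libraries came from untreated BT549, a breast cancer line of human origin without oestrogen receptor alpha, grown in serum-supplemented medium. There was 1 Fra-1 ChIP library, 1 DDX5 ChIP library, 1 ChIP library with normal rabbit IgG and 1 library of input DNA, and no genotype or treatment differed between them. Each antibody's peaks were called by the authors over both controls, in 4 lists. As each antibody had a single library, there was no replicate and nothing was tested between antibodies. Shares carry 95% exact (Clopper-Pearson) intervals, and these cover counting error alone. Folds and pileups are the authors' values, and positions are in hg19.

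Fra-1 belongs to the Fos family and binds DNA as a dimer with a Jun protein, together forming the transcription factor AP-1. DDX5, an RNA helicase of the DEAD-box family, acts as a coactivator of transcription and takes part in the processing of ribosomal RNA precursors. Ribosomal DNA (rDNA) consists of many near-identical tandem copies, each with a unit that RNA polymerase I transcribes into the precursor of 18S, 5.8S and 28S ribosomal RNA and a long intergenic spacer. Most copies are missing from the assembled chromosomes, so reads from all of them can align to the few that the assembly holds, such as those on chrUn_gl000220 (gl000220). The haplotype contigs of chromosome 6 are alternative sequences of the major histocompatibility complex, which holds the HLA genes. The contig chr17_ctg5_hap1 is the alternative, inverted form of the region around MAPT, the gene of the tau protein. How the authors treated reads that match several places is not given in the sources used here, so a peak on these sequences cannot be assigned to 1 copy.

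Members were a small share of every list, and their number depended on the control. The Fra-1 list over input held 148 on 33 contigs, 0.484% of its 30571 peaks (0.409% to 0.568%). The Fra-1 list over IgG held 34 on 15 contigs, 0.211% of 16133 (0.146% to 0.294%). In the DDX5 list over input there were 68 on 19 contigs, 0.628% of 10836 (0.488% to 0.795%). The DDX5 list over IgG held 0 of 61, an interval that reaches 5.87%. Over input, 16 contigs carried peaks of both antibodies, 17 carried Fra-1 peaks alone and 3 (gl000226, gl000231 and gl000243) a single DDX5 peak each. The scaffold gl000220 stood apart by its number of peaks, 35 for Fra-1 and 35 for DDX5 over input. None of them met a peak of the same antibody over IgG. Over all peaks over input, 50.5% of Fra-1 peaks and 0.508% of DDX5 peaks did. For DDX5 that share is too small for 35 peaks to be set apart from it. The next fullest contig held 9 Fra-1 peaks over input (chr6_dbb_hap3).

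**Figure D1:**
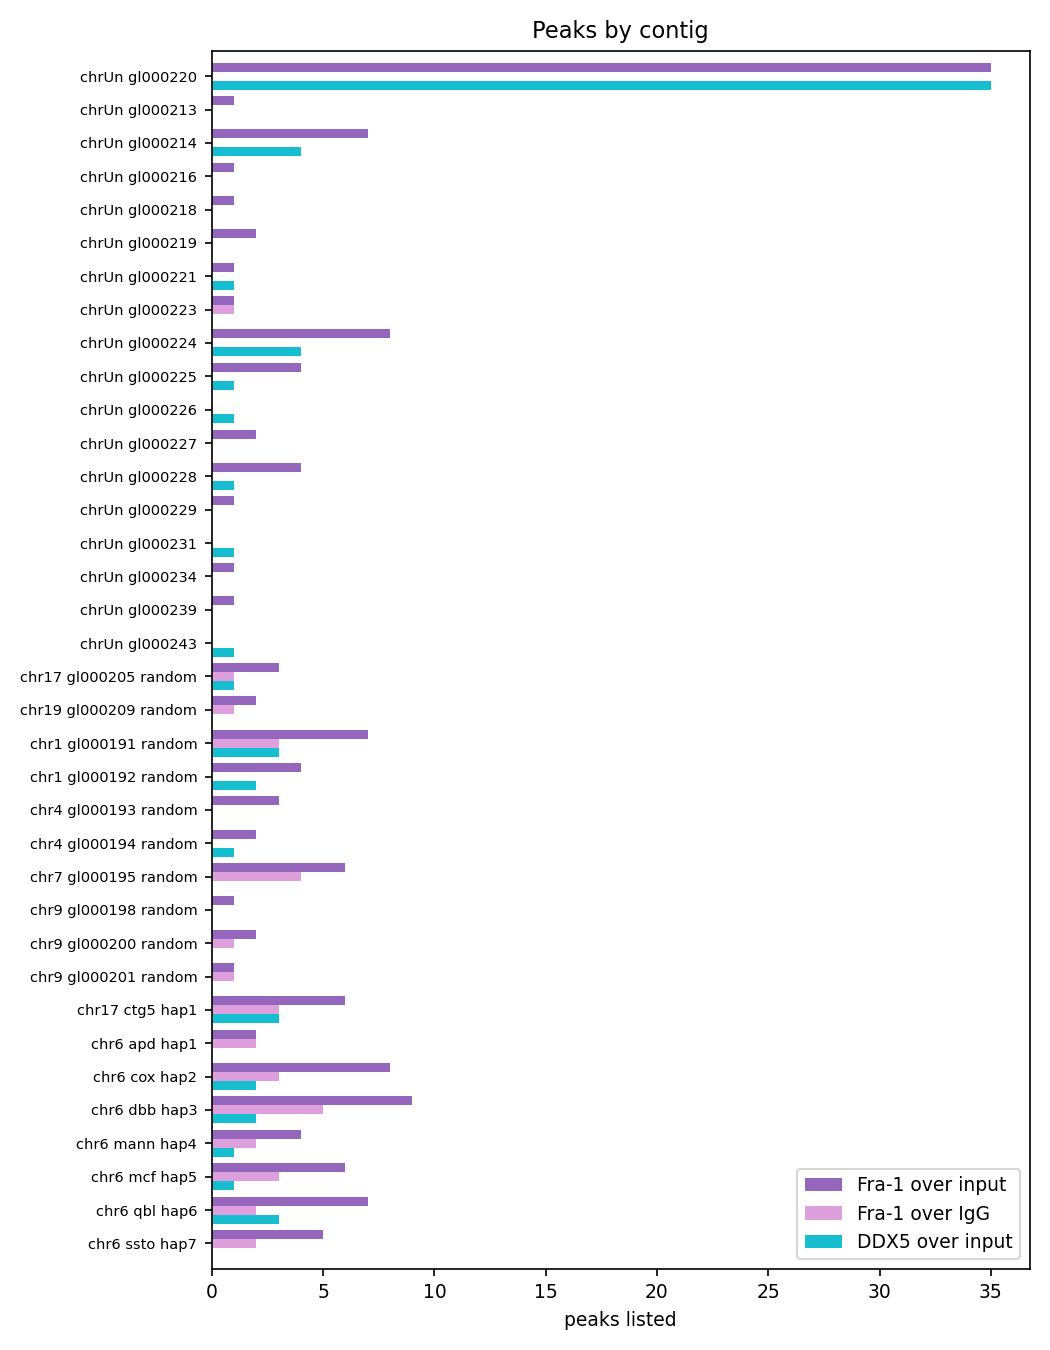
Number of listed peaks (x axis) on each contig (y axis, grouped as rDNA scaffold, other unplaced, random and haplotype) by list (Fra-1 over input in purple, Fra-1 over IgG in pink, DDX5 over input in cyan). The scaffold gl000220 holds 35 peaks of each antibody over input and no Fra-1 peak over IgG, while each haplotype contig holds at least 2 Fra-1 peaks over IgG. The DDX5 list over IgG holds no member on any contig and is not drawn.

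The 4 kinds of sequence differed most in their background. For each peak the authors' fold enrichment is the pileup (how many ChIP fragments lie over the peak's summit) plus 1 over the local control level plus 1, so the control level could be recovered. It is given here as a multiple of the lowest level in the list. That lowest input level was 3.02 fragments in the Fra-1 list and 2.68 in the DDX5 list. Peaks on gl000220 lay where input was very high, with a median of 64.4 times the lowest level for Fra-1 and 65.7 times for DDX5. On the other unplaced scaffolds the medians were 5.57 and 9.93 times, on the random scaffolds 1.28 and 1.15 times, and on the haplotypes 1.0 and 1.0 times. On the assembled chromosomes the medians were 1.47 and 1.42 times. Input was at the lowest level at 46 of 47 Fra-1 peaks and 11 of 12 DDX5 peaks on the haplotypes, against 15.5% of all Fra-1 peaks and 18.1% of all DDX5 peaks over input.

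Fold enrichment ran in the opposite order. The input level is the divisor of the fold and was recovered from it. The opposite order is therefore in part arithmetic and is not a separate result. For Fra-1 over input the median fold was 1.47 on gl000220 (range 1.24 to 3.01), 2.53 on the other unplaced scaffolds (1.50 to 6.96), 4.09 on the random scaffolds (2.41 to 13.2) and 5.47 on the haplotypes (3.73 to 34.1), beside 5.38 on the assembled chromosomes. For DDX5 over input it was 1.47 (1.25 to 3.46), 2.29 (1.22 to 4.06), 4.62 (2.46 to 6.89) and 4.76 (3.84 to 6.52), beside 4.16. At least 8-fold enrichment was reached by 10 of 148 Fra-1 members, against 29.5% of all Fra-1 peaks over input, and by none of the 68 DDX5 members, against 2.28% of all DDX5 peaks. All 10 were on random scaffolds (4) or haplotypes (6). Over IgG 3 of 34 Fra-1 members reached it, against 38.8% of all Fra-1 peaks over IgG.

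**Figure D2:**
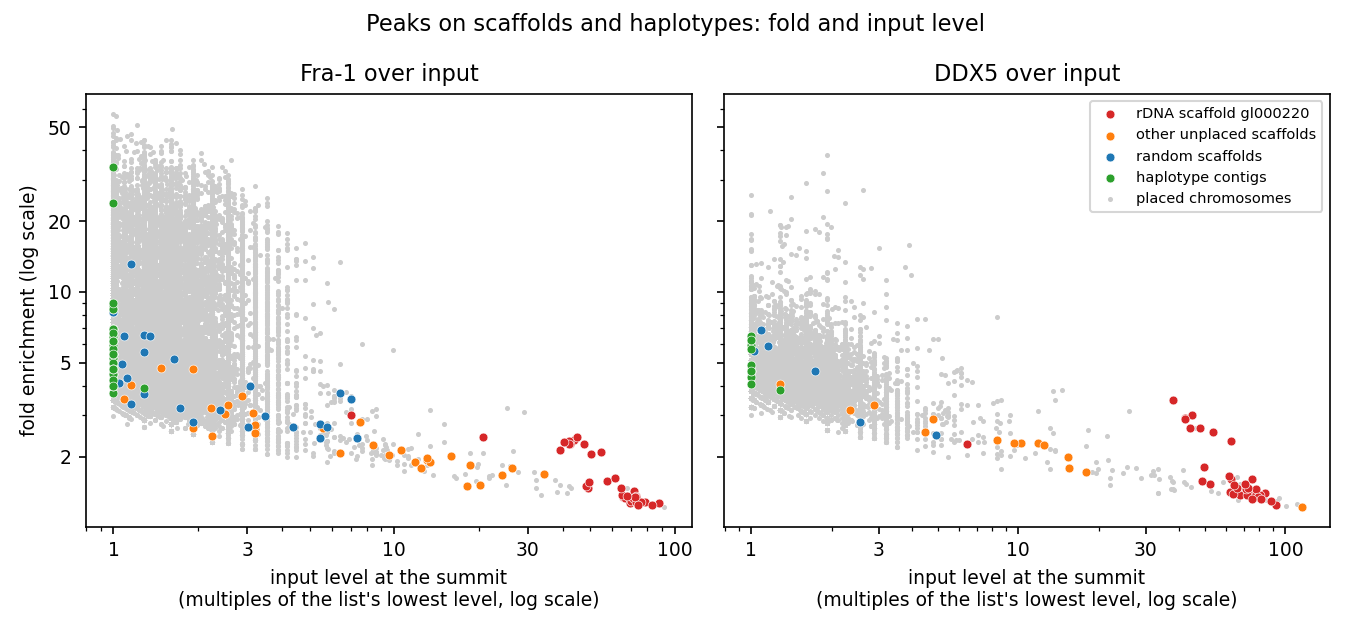
Fold enrichment over input (y axis, log scale) against the input level at the summit in multiples of the list's lowest level (x axis, log scale) for each Fra-1 peak (left) and DDX5 peak (right), with members coloured by kind and peaks on the assembled (placed) chromosomes in grey. All but 1 haplotype peak in each panel sit at the lowest input level, with folds of at least 3.73, and all but 1 of the gl000220 peaks in each panel sit at the right, with folds of at most 3.46.

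The rDNA scaffold held the deepest peak and the widest peak of either list over input. Of the 20 Fra-1 peaks with the highest pileup in the whole list, 15 were on gl000220, and 14 of the 20 for DDX5. Of the 20 widest, 3 were there for Fra-1 and 2 for DDX5. By fold or by −log10 q none of the first 20 of either list was there. The highest Fra-1 pileup, 344, lay at chrUn_gl000220:116893-118480, against 339 as the highest on the assembled chromosomes. The highest DDX5 pileup, 390, lay at chrUn_gl000220:116850-119354, against 373. The widest Fra-1 peak spanned 9438 bp at chrUn_gl000220:104389-113826, against at most 3405 bp on the assembled chromosomes. For DDX5 the widest peaks were 9473 bp at chrUn_gl000220:148361-157833 and 9459 bp at chrUn_gl000220:104385-113843, against at most 6412 bp. The 35 Fra-1 peaks covered 34454 bp of the scaffold and the 35 DDX5 peaks 41601 bp.

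On this scaffold both antibodies showed the same layout: a pair of blocks of peaks at 2-fold or more, separated by a stretch of peaks under that fold. The limit of 2-fold was chosen after the values were seen, so the higher folds of the blocks are a description. Block peaks were 224 to 9438 bp wide for Fra-1 and 681 to 9473 bp for DDX5, against 204 to 691 bp and 203 to 2207 bp between the blocks, so the widths overlapped. The first block held 5 Fra-1 peaks from 104389 to 118480 and 4 DDX5 peaks from 104385 to 119354. The second held 6 Fra-1 peaks from 148372 to 161787 and 4 DDX5 peaks from 148361 to 161802, the last base of the scaffold, so that block may be cut short there. Peaks covered at least 91.9% of either Fra-1 block, and 94.4% and 97.3% of the DDX5 blocks. Between the blocks 21 Fra-1 peaks covered 25.6% and 24 DDX5 peaks 49.0% of the stretch.

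Within the blocks the Fra-1 folds were 2.08 to 2.34 in the first and 2.05 to 2.42 in the second, against 1.24 to 1.63 in the stretch between them. The DDX5 folds were 2.32 to 2.92 and 2.66 to 3.46, against a median of 1.42 between them, where none reached 2-fold. The median Fra-1 pileup was 312 and 291.5 in the blocks against 288 between them, while input stood at 43.9 and 42.0 against 71.2 times its lowest level. The median DDX5 pileup was 354 and 340.5 against 278, with input at 50.8 and 42.9 against 72.2 times. For Fra-1 the pileup thus differed little and the input level by more.

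The highest −log10 q on the scaffold fell in the blocks for both antibodies. For Fra-1 the leading peaks in the second block were at 148372 to 151943 (2.41-fold), 157998 to 159465 (2.32-fold), and from 160790 up to 161787 (2.31-fold), while those in the first were the peaks starting at 114539 (2.34-fold) and 104389 (2.27-fold). For DDX5 they were at 157977 to 159480 (3.46-fold), 148361 to 157833 (2.99-fold) and 159573 to 160305 (2.90-fold) in the second block, with the peaks starting at 115610 (2.92-fold) and 114021 (2.64-fold) in the first. For both antibodies 3 of the 5 leading peaks thus lay in the second block.

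**Figure D3:**
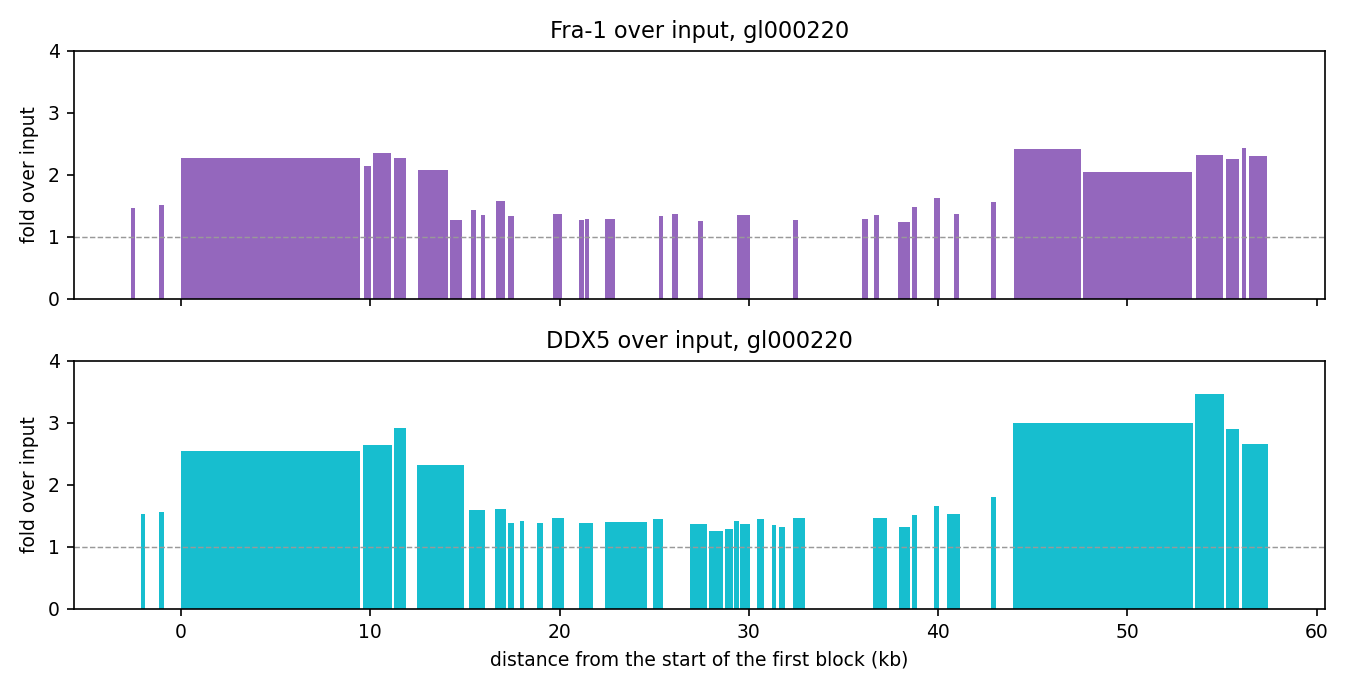
Peaks over input on gl000220 for Fra-1 (top) and DDX5 (bottom), each drawn as a bar with its width on the x axis (kb from the start of the first DDX5 block) and its fold enrichment on the y axis, with a dashed line at 1-fold. Peaks of at least 2-fold, among them the widest, form a block at either side of a stretch of peaks under 2-fold; the isolated peak far to the left is outside the plot.

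Some peak edges recurred from one block to the other. The shift that matched most edges was searched for from 30000 to 50000 bp on these same edges, separately for each antibody, so the matches are a description. The best shift, 43977 bp for Fra-1 and 43985 bp for DDX5, placed 5 of 10 Fra-1 edges and 6 of 8 DDX5 edges of the first block within 30 bp of an edge of the second. DDX5 peaks were interrupted at 113844 to 114020, 115505 to 115609 and 116291 to 116849 in the first block, and at 157834 to 157976, 159481 to 159572 and 160306 to 160434 in the second. Fra-1 peaks were interrupted at each of these 6 places too, and at 3 more that had no DDX5 counterpart, 114397 to 114538, 151944 to 152033 and 160682 to 160789. Of the 22 Fra-1 edges in the blocks 13 lay within 30 bp of a DDX5 edge, and over the whole scaffold 25 of 70 did. Both lists used the same input library, which enters the edges of both. No sequence was compared.

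**Figure D4:**
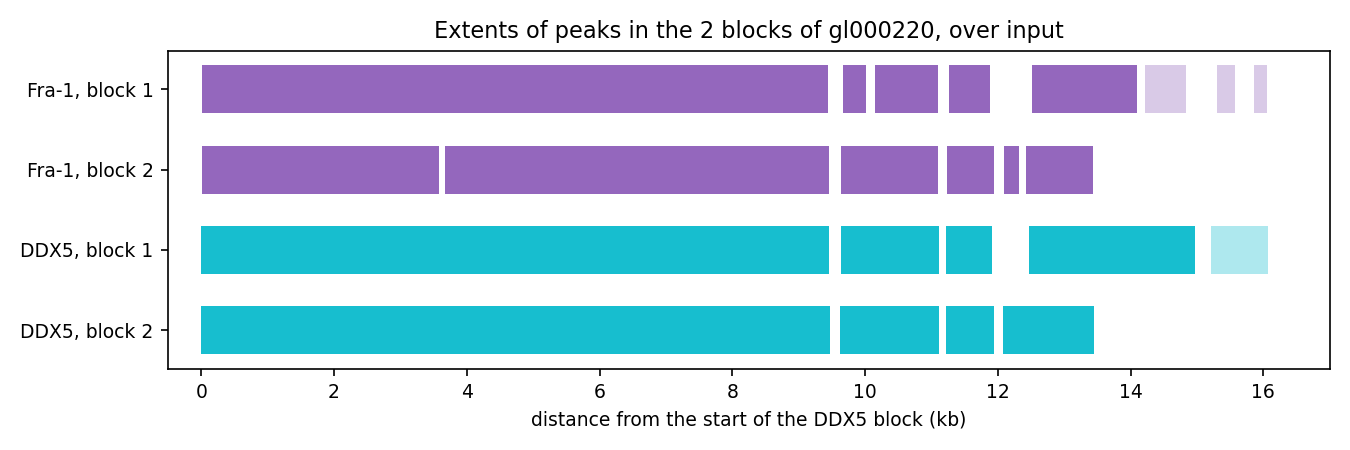
Extents of the peaks over input in both blocks of gl000220, aligned at the start of the DDX5 block (x axis, kb), with 1 row per antibody and block; pale bars are peaks under 2-fold. Each DDX5 row has 3 interruptions, which begin at like distances in both blocks, and the rows of the second block stop at or near the end of the scaffold.

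RefSeq's gene table for GRCh38.p14 lists RNA45SN5, the ribosomal RNA precursor, with RNA18SN5, RNA5-8SN5 and RNA28SN5 as neighbours, followed by the pseudogenes LOC100286895, RNA18SP3, RNA5-8SP8 and LOC124905315. It describes another build than the peaks, so no peak was assigned to any of these genes and only their order is given. An annotation of hg19 was not used here.

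Fra-1 and DDX5 peaks coincided at most places on gl000220. With an overlap of at least 1 bp, 32 of its 35 Fra-1 peaks (91.4%, 76.9% to 98.2%) met a DDX5 peak, against 21.8% of all Fra-1 peaks over input. Of its 35 DDX5 peaks, 27 (77.1%, 59.9% to 89.6%) met a Fra-1 peak, against 61.8% of all DDX5 peaks over input, a share inside that interval. DDX5 peaks covered 94.4% and 97.3% of the blocks and 49.0% of the stretch between them. An overlap of 1 bp is therefore likely for any peak placed there. The 21.8% comes from sparser peaks and is not a like baseline. Of the bases under Fra-1 peaks 94.8% were also under DDX5 peaks, and of those under DDX5 peaks 78.5% were under Fra-1 peaks. The DDX5 fold was the higher in 32 of 33 overlapping pairs, against 44.8% of pairs over all sequences. The difference was often small, with medians over the 33 pairs of 1.48 for Fra-1 and 1.60 for DDX5. The pairs share peaks, lie side by side and use the same input library, so they are not replicates. In some pairs the DDX5 summit lies outside the Fra-1 peak, so the folds come from different places. At 126796 to 129002 the DDX5 summit is at 128820, while the Fra-1 partner ends at 127301. The 44.8% comes mostly from assembled chromosomes, where the median input level was far lower, and is not a like baseline. In the widest pair, starting at 104389 for Fra-1 and 104385 for DDX5, the folds were 2.27 and 2.54 and the pileups 326 and 366. The exception was the isolated peak near the start of the scaffold, chrUn_gl000220:7248-8177 for Fra-1 (3.01-fold, pileup 66) and 7727 to 8000 for DDX5 (2.26-fold, pileup 40). Input there was 7.05 and 6.41 times its lowest level, far below the rest of the scaffold.

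Members and assembled chromosomes were also set side by side where input was at least 20 times its lowest level, a limit chosen after the values were seen. The 38 Fra-1 members there had a median fold of 1.49, and 11 reached 2-fold, against a median of 1.60 and 4 of 24 peaks on assembled chromosomes. The 35 DDX5 members had a median of 1.46, and 8 reached 2-fold, against 1.56 and 3 of 39. All the members that reached 2-fold there were the block peaks, which were grouped by that limit.

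The other unplaced scaffolds held 35 Fra-1 and 14 DDX5 peaks over input, and 1 Fra-1 peak over IgG. The fullest were gl000224, with 8 Fra-1 and 4 DDX5 peaks, and gl000214, with 7 and 4. By −log10 q the Fra-1 list was led by chrUn_gl000213:155384-155728 (6.96-fold, pileup 27), chrUn_gl000228:106027-106426 (4.70-fold), chrUn_gl000225:73674-73878 (2.81-fold), chrUn_gl000223:119512-119767 (5.47-fold) and chrUn_gl000227:14153-14432 (4.77-fold). None of these 5 overlapped a DDX5 peak, and the one on gl000223 alone was listed over IgG (5.33-fold). The DDX5 list was led by chrUn_gl000214:132741-133110 (2.29-fold) and chrUn_gl000228:119259-119605 (2.23-fold), then by chrUn_gl000214:129544-129773 (2.28-fold), chrUn_gl000243:17245-17444 (2.88-fold) and chrUn_gl000225:28112-28315 (2.28-fold). Of these, the peak at 119259 and that at 129544 overlapped Fra-1 peaks, of 1.97-fold and 2.12-fold. In all, 4 of 35 Fra-1 peaks (11.4%, 3.20% to 26.7%) and 4 of 14 DDX5 peaks (28.6%, 8.39% to 58.1%) on these scaffolds overlapped the other antibody. Both shares were below those of gl000220, where peaks lay far more densely, so the shares are not alike. Peaks of 1 library on 1 scaffold are also not independent, and the difference was not tested.

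The DDX5 peak with the highest input level of its whole list lay on gl000226, at 838 to 1139. It had a pileup of 378, input at 116 times the lowest level, and a fold of 1.22, the lowest of the list. A large pileup and a low fold thus stood together there as on gl000220.

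The random scaffolds held sites listed for Fra-1 with both controls. By −log10 q over input the first was chr1_gl000191_random:79170-79474, with 7.47-fold enrichment over IgG and 13.2-fold over input. It was followed by chr1_gl000191_random:88549-88907 (6.04-fold over IgG, 8.45-fold over input), chr1_gl000191_random:21410-21718 (7.32-fold and 8.20-fold), chr19_gl000209_random:31045-31340 (5.86-fold and 8.20-fold) and chr17_gl000205_random:85055-87026 (3.51-fold and 3.73-fold). None of these 5 overlapped a DDX5 peak. The DDX5 peaks of gl000191 lay at other Fra-1 peaks of the same scaffold, which were not listed over IgG. At 49903 to 50160 the Fra-1 fold was 6.53 and the DDX5 fold 6.89, the highest DDX5 fold of any member. At 29655 to 29940 they were 6.57 and 5.87, and the DDX5 peak at 28977 to 29501 (5.61-fold) overlapped 2 Fra-1 peaks. Another shared site was at chr1_gl000192_random:544833-545157, with a Fra-1 fold of 3.21 and a DDX5 fold of 4.62. The DDX5 peak at chr1_gl000192_random:16054-16258 (4.62-fold) had no Fra-1 partner.

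The scaffold chr7_gl000195_random carried 6 Fra-1 peaks over input and no DDX5 peak. Of these, 4 were listed over IgG, at 2.56-fold to 2.76-fold, although the IgG level at them was 4.87 to 9.73 times the lowest of that list. Among them the peak at 32445 to 32675 had a scaled pileup of 68.1 over IgG, and its counterpart at 32405 to 32939 a pileup of 77 over input.

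The haplotypes carried 47 Fra-1 peaks over input, 22 over IgG, and 12 DDX5 peaks over input. The strongest members of all lay on chr17_ctg5_hap1. The Fra-1 peak at chr17_ctg5_hap1:63973-64789 had a pileup of 136 and was 12.1-fold enriched over IgG and 34.1-fold over input. The one at chr17_ctg5_hap1:13394-13781 had a pileup of 95 and was 14.2-fold enriched over IgG and 23.9-fold over input. DDX5 was listed at the site near 63973 as well, at 64166 to 64487 (5.98-fold), and not at that near 13394. It was also listed at 493396 to 493767 (6.25-fold), over a Fra-1 peak of 6.22-fold at 493344 to 493670. On the same stretch of the assembled chromosome 17, taken as 43 to 45 Mb after the values were seen, the strongest of 20 Fra-1 peaks over input had a pileup of 123 and 25.5-fold enrichment.

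The 7 haplotypes of chromosome 6 held 41 Fra-1 peaks over input with a narrow range of folds, 3.73 to 8.95, and pileups of 14 to 35. The 16 Fra-1 peaks at 28 to 34 Mb of the assembled chromosome 6, which covers the same complex, had folds of 3.09 to 15.7 and pileups of 15 to 106. The medians were 5.47-fold on the haplotypes and 5.10-fold on the assembled chromosome, with median pileups of 21 and 22.5. Input was at its lowest level at 40 of the 41 haplotype peaks and at 8 of the 16 others. The divisor of the folds was therefore not alike. The strongest haplotype peaks were at chr6_mann_hap4:2374427-2374722 (8.95-fold), chr6_dbb_hap3:1948859-1949117 (8.70-fold), and chr6_dbb_hap3:2013902-2014282 and chr6_dbb_hap3:2043332-2043697 (8.45-fold each). All 4 were listed over IgG, at 7.55-fold to 8.70-fold.

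Peaks stood at similar positions on several haplotypes, in stretches chosen after the values were seen. Between 2.3 and 2.6 Mb, counted along each contig, each of the 7 haplotypes held a single Fra-1 peak. These 7 peaks had folds of 6.05 to 8.70 over IgG and 6.22 to 8.95 over input, and no DDX5 peak lay in that stretch on any of them. Between 4.4 and 4.8 Mb, 4 haplotypes held 5 DDX5 peaks, of 4.08-fold to 6.52-fold. The 4 Fra-1 peaks there, on 3 of these haplotypes, had folds of 3.98 to 4.72, a range that overlaps that of DDX5, and none was listed over IgG. The DDX5 peaks there included chr6_dbb_hap3:4548367-4548790 (6.52-fold), chr6_qbl_hap6:4499169-4499893 (6.25-fold) and chr6_mcf_hap5:4740618-4741193 (5.71-fold), which all overlapped Fra-1 peaks. The contigs are numbered separately, and whether these are 1 site in different versions was not tested.

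The share of Fra-1 members called again over IgG differed between the kinds of sequence. Of the Fra-1 members over input, 34 of 148 (23.0%, 16.5% to 30.6%) were also met by a peak of the list over IgG, against 50.5% of all Fra-1 peaks over input. The share was 0 of 35 on gl000220 (up to 10.0%), 1 of 35 on the other unplaced scaffolds (2.86%, 0.0723% to 14.9%), 11 of 31 on the random scaffolds (35.5%, 19.2% to 54.6%) and 22 of 47 on the haplotypes (46.8%, 32.1% to 61.9%). The haplotype and random scaffold intervals include the share of the whole list, and those of gl000220 and the other unplaced scaffolds lie below it. The median folds over input rose in the same order, 1.47, 2.53, 4.09 and 5.47, beside 5.37 for the whole list. The 50.5% is therefore not a like baseline for the kinds with low folds. On gl000220 no peak was listed over IgG, so the IgG level there is not known. What set the shares apart was not tested. Over input, the members called again with IgG had the higher median fold, 6.59, against 2.67 for the rest, which include all gl000220 peaks (median 1.47). On the haplotypes alone the medians were 6.71 and 4.72. The same order held on the assembled chromosomes, with 8.90 and 4.11. Both lists use the same Fra-1 library, so a higher fold over input favours a call over IgG. This order is therefore largely built in and is not a result about the members. Among the 45 Fra-1 members at or above the list's median −log10 q, 55.6% were called again, against 86.3% of all Fra-1 peaks over input at that limit. These 45 include all 11 block peaks of gl000220, none of which was listed over IgG. The lower share thus rests in part on that 1 scaffold. In the other direction, all 34 members over IgG overlapped a Fra-1 peak over input, as did 97.7% of all Fra-1 peaks over IgG. Of the DDX5 members, 0 of 68 (up to 5.28%) overlapped a DDX5 peak over IgG, against 0.508% of all DDX5 peaks over input, a share too small for so few members to be set apart from it.

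Where both controls listed a Fra-1 member, the fold over IgG was the lower in 32 of 34, against 74.2% of all such pairs. Input was at its lowest level at most of these members, among them all 22 on haplotypes. At such peaks the scaling of the pileup leaves the fold over IgG no way to be the higher. The 32 of 34 is therefore not a result about the members. In 13 of the 34, of which 12 were on haplotypes, both controls were at their lowest level; there the ratio of the folds follows from the scaling of the pileup and was at least 0.972. On the haplotypes the median ratio of the fold over IgG to the fold over input was 0.973 (22 peaks), and the IgG level was at its lowest at 12 of them, against 9.26% of all Fra-1 peaks over IgG. On the random scaffolds the ratio was 0.757 (11 peaks), and it was 0.788 in 15746 pairs on the assembled chromosomes. The largest reduction was at the strongest member, 63973 to 64789 on chr17_ctg5_hap1, with a ratio of 0.356 and an IgG level 3.37 times the lowest while input was at its lowest. The summits in the lists were a median of 0 bp and at most 27 bp apart.

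**Figure D5:**
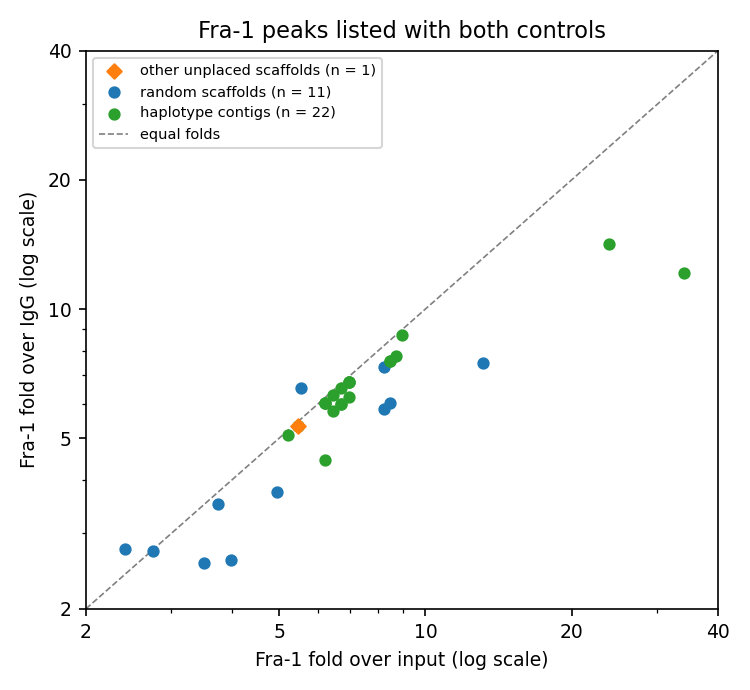
Fold enrichment over IgG (y axis, log scale) against fold enrichment over input (x axis, log scale) for the 34 Fra-1 members listed with both controls, coloured by kind, with a dashed line at equal folds. Most haplotype peaks sit close to the line, while the strongest, at 34.1-fold over input, is at 12.1-fold over IgG; 2 peaks on random scaffolds sit above the line.

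Over all members, DDX5 peaks met 48 of 148 Fra-1 members (32.4%), and 16.2% when the centres had to lie within 100 bp. Outside gl000220, 16 of 113 Fra-1 members (14.2%, 8.32% to 22.0%) overlapped a DDX5 peak over input, against 21.8% of all Fra-1 peaks over input. There 15 of 33 DDX5 members (45.5%, 28.1% to 63.7%) overlapped a Fra-1 peak over input, against 61.8% of all DDX5 peaks. Both intervals include the share of the whole list. Of the 34 members listed for Fra-1 over IgG, 1 overlapped a DDX5 peak over input (2.94%, 0.0744% to 15.3%). It was the site at 64067 to 64710 on chr17_ctg5_hap1. Over all Fra-1 peaks over IgG the share was 8.68%, which lies inside that interval. The DDX5 fold was the higher in 13 of the 17 overlapping pairs outside gl000220, again against 44.8% of all pairs. These pairs too share peaks and the input library, so they are not replicates. In some of them too the DDX5 summit lies outside the Fra-1 peak, as at chr6_dbb_hap3:4548367-4548790. On the haplotypes 6 of 7 pairs had the higher fold for DDX5, with medians of 4.48 for Fra-1 and 6.25 for DDX5. The pair that did not was the strongest Fra-1 site, with 34.1-fold for Fra-1 and 5.98-fold for DDX5. The 7 pairs include all 4 Fra-1 peaks between 4.4 and 4.8 Mb on chromosome 6 haplotypes, which may be versions of 1 site. The DDX5 peak at chr6_qbl_hap6:4499169-4499893 counts in 2 pairs. At 493396 on chr17_ctg5_hap1 the folds were nearly equal, 6.22 for Fra-1 and 6.25 for DDX5.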

How the data were processed

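The 4 deposited peak lists come from 1 Fra-1 and 1 DDX5 ChIP library, each called separately against 1 input and 1 IgG library. The submitters' processing notes name CASAVA 1.8, Bowtie 0.12.9, HOMER and hg19, without roles; the peak caller, its settings and its handling of reads with several matches were not given in those sources. Per the file headers, the deposited signal is a pileup and the deposited fold enrichment is a ratio. Pileups over input are whole numbers, while over IgG their steps are 0.884 for Fra-1 and 0.998 for DDX5, within 0.02, so ChIP signal was scaled there. The authors' 2 −log10 columns have damaged header cells. The first equals, over input, a Poisson −log10 p-value of the pileup given the control level. The second lies below it in each list and was taken as −log10 q, also in place of the score that the planned rules named. Absolute depths are unknown.

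The control level was computed as (pileup + 1)/fold − 1 and cannot fall below the caller's background. Peaks were matched by an overlap of at least 1 bp. Alternatives were stricter thresholds, other overlap rules and leaving out gl000220. There was no test, since each antibody had 1 library. Called peaks only were available, so nothing is known between them. The overlap and edge-matching code was tested on simulated data. The naming rule took the 5 peaks with the highest −log10 q for each kind of sequence and list, every member on contigs with 3 or fewer, and all members of a list over IgG holding 20 or fewer. Other peaks, blocks, stretches and windows were singled out after their values were seen. Members, lists and windows were chosen with earlier results of these data known. No sequence is shown, since a genome of the build was not used here. Software was Python 3.11.15 with scipy 1.17.1, pandas 2.3.3, numpy 2.4.6, and matplotlib 3.10.9 for plots.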

Additional observations from a re-analysis of the deposited data

How the results depend on the processing

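In 25 of 46 recalculations a share left its interval, a count changed by over 1.5 times or a median moved, and in the other 21 none did. The 148, 34 and 68 members (Fra-1 over input, Fra-1 over IgG, DDX5 over input) became 10, 3 and 0 at 8-fold or more and 45, 3 and 39 at or above the list's median −log10 q; the DDX5 count became 33 without gl000220. Their shares of the lists, 0.484%, 0.211% and 0.628%, became 0.111%, 0.0480% and 0% at 8-fold; 0.294% and 0.0371% for Fra-1 above the median −log10 q; and 0.370% (Fra-1 over input) and 0.306% (DDX5) without gl000220. The median folds, 3.41, 6.05 and 2.29, became 6.46, 12.1 and 2.36 above the median −log10 q, and 4.48 (Fra-1 over input) and 4.06 (DDX5) without gl000220. Among Fra-1 members 23.0% were called again over IgG, and 55.6% of those above the median −log10 q, where the share of all peaks was 86.3%. The members above it include the block peaks of gl000220, none of which was called over IgG. Fra-1 peaks met 61.8% of DDX5 members, but 35.3% when centres had to lie within 100 bp, 45.5% without gl000220 and 35.9% with both lists above their median. DDX5 peaks met 32.4% of Fra-1 members, but 16.2% by centres and 14.2% without gl000220. Thresholds, stricter overlap and fewer contigs lower counts by construction; for the other moves the cause was not tested. No paired analysis was possible because each group has 1 library. The wide intervals of shares over 7 to 47 members set what the smaller groups can show.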

Other observations

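Of the contigs with Fra-1 peaks over input, 10 held exactly 1. On contigs with at most 3 members in all, Fra-1 folds over input ran from 1.68 to 8.20. The lowest was at chrUn_gl000216:145317-145519, where input stood at 34.3 times its lowest level and the pileup was 175. The highest was the peak on chr19_gl000209_random already given, and that scaffold also held one at 156639 to 156839 (4.97-fold). Fra-1 peaks on unplaced scaffolds lay at chrUn_gl000227:73712-74095 (2.06-fold), chrUn_gl000219:100109-100331 (2.72-fold), chrUn_gl000219:99123-99537 (3.60-fold) and chrUn_gl000229:14474-14851 (3.04-fold). Others lay at chrUn_gl000234:19985-20233 (3.06-fold), chrUn_gl000218:97277-97543 (3.32-fold) and chrUn_gl000239:15283-15507 (3.50-fold). None of these 7 was listed over IgG or overlapped a DDX5 peak. The single DDX5 peak of gl000231 was at 18790 to 19006 (2.54-fold).

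On gl000221 both antibodies were listed at 1 place with a pileup of 28 each, at 2.72-fold for Fra-1 (79789 to 80133) and 3.32-fold for DDX5 (79778 to 79979). On chr4_gl000194_random a Fra-1 peak at 114679 to 114878 (2.79-fold) overlapped a DDX5 peak at 114838 to 115054, and neither summit lay in the bases they shared. That scaffold held another Fra-1 peak at 69538 to 69800 (5.19-fold). The 3 Fra-1 peaks of chr4_gl000193_random, at 57938 to 58175 (4.09-fold), 81376 to 81756 (3.15-fold) and 149829 to 150074 (3.33-fold), had no partner in another list, nor had that at chr9_gl000198_random:73503-73809 (2.97-fold). On chr9_gl000200_random the peak at 87711 to 88164 was 3.74-fold enriched over IgG and 4.94-fold over input, and one at 121516 to 121725 (4.48-fold) was listed over input alone. The single Fra-1 peak of chr9_gl000201_random, at 7075 to 7321, was higher over IgG (6.53-fold) than over input (5.54-fold).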
